A study of Botryllus schlosseri with 42 samples.

Results

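Stage C1 of the blastogenic cycle was compared between fertile and infertile colonies of Botryllus schlosseri, a colonial ascidian, in 6 whole-colony RNA libraries out of 42 in the series. The 6 are all libraries whose labels give stage C1, with 3 fertile libraries (labelled Hermaprhodite) and 3 infertile libraries (labelled Infertile). All colonies were raised in the laboratory and no treatment separates the groups. The fertile libraries were titled Fert801, Fert841 and MixFert, and the infertile libraries Infert001, Infert802 and MixInfert. In each group 2 libraries came from 1 genotype each and the Mix library was a pool of several genotypes. The methods give the genotype number of Fert841 also to a member of the infertile pool, and the number of Infert802, with another letter, also to a member of the fertile pool. The state of fertility is therefore compared over few genotypes, and the groups differ in genotype as well as in state. The whole colony was extracted, so the RNA holds feeding zooids, 2 generations of buds, blood and tunic beside any gonad.

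Botryllus zooids are short-lived and are replaced together by buds that grew beside them, and stage C1 falls late in that cycle, before the old zooids are resorbed at stage D. Fertile colonies can be hermaphroditic or carry testes alone, and the labels call the fertile group hermaphrodite. Testes develop in place in the bud, where germ cells pass through meiosis and condense their chromatin into sperm heads with a flagellum, while oocytes are surrounded by follicle cells and test cells, take up yolk through receptors of the lipoprotein receptor family and are covered by an egg coat. Infertile colonies bud and feed in the same cycle but carry no mature gonads, and they keep primitive germ cells that express vasa, piwi and nanos.

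The deposited table lists 50106 contigs of a transcript assembly with the mean normalized count of each group. Whole read pairs of each library were recovered from these means for 49927 contigs. The other 179 contigs all had a group mean above 30000 normalized counts and have no full set of library values. No genotype name goes with a recovered library, and the numbers 1 to 3 within each group follow the size factor, largest first. Fertile libraries 1, 2 and 3 held 11120897, 5995224 and 3475673 recovered read pairs, and infertile libraries 1, 2 and 3 held 12338938, 12423948 and 9334497. Fertile library 3 was thus the shallowest, and 1 read pair in it is worth 4.33 normalized counts. Below, the values of a group are given in the order of its libraries 1, 2 and 3. Differences are on the log2(normalized count + 1) scale with the standard error of the limma fit (SE, n = 3 libraries a group). That fit draws the spread of each contig toward the spread of all contigs tested.

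Infertile library 1 stood apart from the other infertile libraries before any test. In the list of 47 tested contigs with homologs of sperm and testis proteins, the median level was 59.2, 50.8 and 191 normalized counts in the fertile libraries, against 109, 5.57 and 4.30 in the infertile libraries. The median contig of this list stood at 107% of its fertile mean in infertile library 1, at 3.34% in infertile library 2 and at 3.36% in infertile library 3. Over the 38223 contigs tested, the most alike pair of libraries was fertile library 2 and infertile library 1 (Pearson's r of 0.907 across contigs, which are not independent). The next pair, infertile libraries 2 and 3, had r = 0.813 and the least alike pair 0.732. The library labelled infertile 1 therefore goes against its label on male genes, and the list medians that rest on it are given with and without it.

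With all 6 libraries, 11 contigs passed a count test and none passed limma. Contigs averaging 10 normalized counts or more over the 6 libraries entered the main test, limma at a 10% FDR by the Benjamini-Hochberg method, which called 0 of 38223 contigs higher and 0 lower in fertile colonies (0% of contigs tested in each direction), with a smallest adjusted p of 0.721. At an unadjusted p below 0.05, 885 contigs were higher (2.32%) and 592 lower (1.55%). A negative binomial exact test on the read pairs, with Benjamini-Hochberg adjustment, called 11 contigs higher (0.0288%) and 0 lower, and 610 contigs had an unadjusted p below 0.05. In simulated data with dispersions drawn from these libraries, the exact test let through a larger share of unchanged contigs than its 10% FDR, so its calls are less certain than the adjusted p states. Groups without overlap were found for 1678 contigs with the fertile libraries on top (4.39%) and for 2191 with the infertile libraries on top (5.73%). The fertile mean was over 2 times the infertile mean for 3874 contigs (10.1%). The counts given for lists below stand against these shares of all contigs tested. An exact permutation test of 3 against 3 libraries cannot give a two-sided p below 0.1, so none is printed for single contigs. The contigs named below had a limma adjusted p of 0.922 unless another value is given. In these whole-colony samples, fewer cells of a type and less RNA per cell cannot be told apart.

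Plasma serine proteases held the contig whose call depended least on single libraries. Plasminogen is in vertebrates the precursor of plasmin, a protease that degrades fibrin and extracellular matrix, and Bot_c16998 had 664, 314 and 316 normalized counts in fertile libraries, against 2.69, 9.75 and 10.8 in infertile libraries. The groups did not overlap, and infertile library 1 was the lowest of the 6. The difference was 5.71 ± 0.60, a ratio of group means of 55.8, with an adjusted p of 5.98e-05 in the negative binomial exact test. It kept its call in 7 of 7 alternatives of that test, which left out each library or counted both mates. Plasma kallikrein is a related protease of the vertebrate contact and kinin system, and CAP3_round1_contig_2527 had 759, 486 and 169 normalized counts in fertile libraries, against 1.35, 1.39 and 0 in infertile libraries. With no infertile library above 3 read pairs it was at least 96.4-fold higher in fertile colonies, and the adjusted p was 0.000307 in the negative binomial exact test and 0.721 in limma. The call was kept in 6 of 7 alternatives and lost without infertile library 2, at an adjusted p of 0.145.

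**Figure D1:**
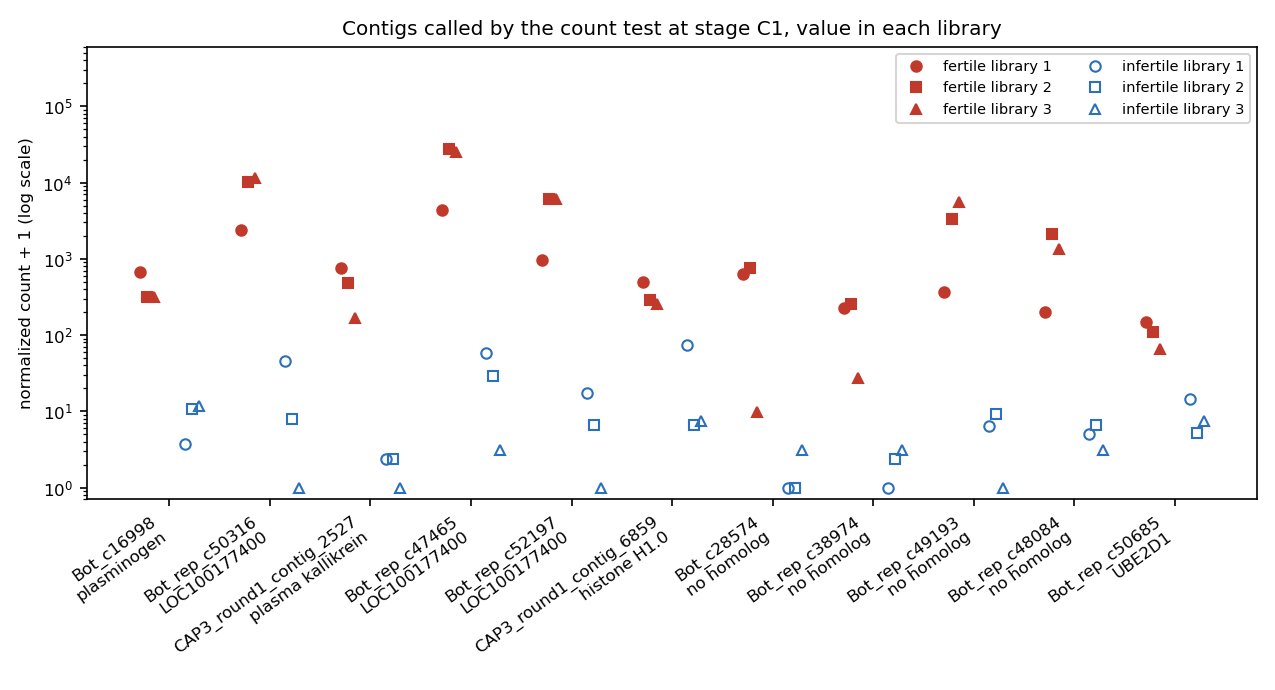
Normalized count + 1 (log axis) of the 11 contigs called by the count test at stage C1, in fertile libraries 1 to 3 (filled red) and infertile libraries 1 to 3 (open blue), ordered by adjusted p. All fertile points lie above all infertile points of each contig, and fertile library 3 is close to the infertile libraries for Bot_c28574, with 8.67 against at most 2.15 normalized counts.

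The plasma protease list, chosen like all lists by homolog name with earlier results of these data known, had 19 members, all tested. Of these, 4 had a limma p below 0.05 and higher values in fertile colonies, against 2.32% of all contigs, 0 were lower at that p, and the median difference was 1.27 against 0.01 over all contigs tested. The other 2 of the 4 were further plasminogen contigs. Bot_rep_c48454 had 9563, 8909 and 1330.3 normalized counts in fertile libraries, against 437, 716 and 1242 in infertile libraries (2.73 ± 0.88). CAP3_round1_contig_363 had 2165, 2363 and 282 in fertile libraries, against 101, 179.8 and 297 in infertile libraries (2.68 ± 0.93). In both, fertile libraries 1 and 2 were high and fertile library 3 was near infertile library 3, and for CAP3_round1_contig_363 the groups overlapped. The 3 plasminogen contigs may share reads. Contigs with a human homolog as a whole leaned to the fertile side, with a median difference of 0.55 over 1926. The sheets that name homologs list contigs by their difference between the groups first, so no list is independent evidence of direction.

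Yolk protein contigs held the largest difference at this stage. Of 6 contigs matching the Ciona protein LOC100177400, which include the contig that the study followed as vtg1, a vitellogenin-like yolk protein, 3 had library values and all 3 were called by the count test. Bot_rep_c50316 had 2374, 10095 and 11557 normalized counts in fertile libraries, against 44.4, 6.97 and 0 in infertile libraries. Its difference was 9.84 ± 1.43, the largest of all contigs tested, and its adjusted p was 0.000307 in the negative binomial exact test. Fertile library 1 was the lowest of the fertile libraries, and the groups did not overlap.

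Bot_rep_c47465 showed the same order, with 4384, 27190.3 and 24886 normalized counts in fertile libraries, against 56.5, 27.9 and 2.15 in infertile libraries (9.69 ± 1.26, adjusted p of 0.000529 in the negative binomial exact test). Bot_rep_c52197 had 961, 6079 and 6023 in fertile libraries, against 16.2, 5.57 and 0 in infertile libraries (9.41 ± 1.23, adjusted p of 0.00107 in the negative binomial exact test). Infertile library 1, which carried sperm genes at the fertile level, was the highest infertile library for all 3 contigs, yet its level was between 0.300% and 0.555% of the fertile mean. The 3 calls were kept without infertile library 1, and they depended on the other libraries. Without fertile library 2 or fertile library 3 the adjusted p of the 3 contigs in the negative binomial exact test was between 0.105 and 0.461, and without infertile library 2 it was between 0.165 and 0.275. Without infertile library 3 Bot_rep_c50316 kept its call and the others had 0.143 and 0.224.

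The 3 other LOC100177400 contigs were too abundant in fertile colonies for library values. The vtg1 contig, CAP3_round1_contig_5534, had a deposited mean of 44132 normalized counts in fertile colonies and 65.6 in infertile colonies, whose libraries had 136, 50.2 and 10.8. CAP3_round1_contig_3261 had means of 136992 in fertile and 117 in infertile colonies, with 144, 125 and 81.8 in the infertile libraries. CAP3_round1_contig_7081 had 30827 in fertile and 36.6 in infertile colonies, with 70.0, 33.4 and 6.46 in the infertile libraries. The ratio of group means was between 672 and 1170.2, and in each contig infertile library 1 was the highest infertile library. The 6 contigs match 1 Ciona protein and may share reads, so they are not 6 independent measurements.

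Receptors of yolk and lipid uptake, known in oocytes of many animals, were measured by 19 tested contigs, 13 of lipoprotein receptors and 6 of cubilin, an endocytic receptor of absorptive epithelia. Of the 19, 3 were higher in fertile colonies at a limma p below 0.05, all lipoprotein receptors, and 0 were lower. Over all contigs these shares were 2.32% and 1.55%. The median difference of the 19 was 1.52. The receptor that the study followed as ldlr, Bot_rep_c45532, a homolog of the endocytic receptor LRP1, had 149.5, 585 and 992 normalized counts in fertile libraries, against 8.08, 8.36 and 2.15 in infertile libraries. Its groups did not overlap and the 3 infertile libraries were all low (6.11 ± 0.83, adjusted p of 0.494 in the negative binomial exact test). A very low-density lipoprotein receptor homolog, Bot_c22230, had 9.87, 29.0 and 43.3 in fertile libraries, against 10.8, 1.39 and 0 in infertile libraries (3.0 ± 1.01). Its groups overlapped through infertile library 1. Contigs of megalin (LRP2), an endocytic receptor that acts with cubilin, were uneven in infertile colonies. Bot_c34156 had 32.4, 12.1 and 34.7 in fertile libraries, against 1.35, 19.5 and 0 in infertile libraries, and Bot_c25900 had 24.0, 55.6 and 121 in fertile libraries, against 4.04, 58.5 and 2.15. In both it was infertile library 2 that reached the fertile range. A contig of apolipoprotein B-100, the lipid carrier of vertebrate plasma, CAP3_round1_contig_9203, had deposited means of 64800.4 in fertile and 32534 in infertile colonies and no library values.

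The egg coat and cell surface list was mixed. Of its 15 tested contigs, 0 had a limma p below 0.05 in either direction, 9 were on the fertile side and the median difference was 0.50. The contig followed as zp1, Bot_c16824, whose homolog in the sheets is GP2, a zona pellucida domain protein, lies outside this list and had 26.8, 220.1 and 78.0 normalized counts in fertile libraries, against 6.73, 1.39 and 4.30 in infertile libraries. Its groups did not overlap and infertile library 1 was as low as the others (4.09 ± 0.85). P-selectin, an adhesion lectin followed as selp (Bot_c13044), had 24.0, 36.3 and 455 in fertile libraries, against 53.8, 5.57 and 2.15 in infertile libraries (2.85 ± 1.47). Here fertile library 3 alone was high and infertile library 1 lay above fertile libraries 1 and 2. Tetraspanins organise membrane proteins, and the CD9 tetraspanin is needed for egg fusion in mice. The tspan8 contig, Bot_c16543, had 15.5, 2.42 and 52.0 in fertile libraries, against 20.2, 0 and 2.15 in infertile libraries (1.83 ± 1.41), with overlap. The tetraspanin-8 homolog CAP3_round1_contig_7497 had 1924, 19.4 and 1343 in fertile libraries, against 2.69, 173 and 40.9 in infertile libraries (3.65 ± 2.14). Its fertile libraries spanned most of the range, and infertile library 1 was the lowest of the 6. A CD9 homolog, CAP3_round1_contig_7333, had 2277, 1415 and 1369 in fertile libraries, against 2475, 1846 and 4559.7 in infertile libraries (-0.75 ± 0.48), with overlap.

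Extracellular matrix and its proteases had a median difference of 1.02 over 60 tested contigs, which was 0.23 without infertile library 3 and 0.46 without fertile library 3. Of the 60, 37 had a positive difference. At a limma p below 0.05, 4 were higher and 1 lower in fertile colonies, against 2.32% and 1.55% of all contigs. The groups did not overlap for 4 higher and 5 lower, against 4.39% and 5.73% of all contigs. Tenascin, a matrix glycoprotein of remodelled tissue, had 109, 62.9 and 429 normalized counts in fertile libraries, against 25.6, 27.9 and 10.8 in infertile libraries (CAP3_round1_contig_973, 2.79 ± 0.79). The groups did not overlap and fertile library 3 was the highest. Hemicentin-1, a matrix protein that acts at the gonad in the nematode, was the homolog of 13 tested contigs, 8 with a positive and 5 with a negative difference. Bot_c25606 had 83.2, 26.6 and 73.7 in fertile libraries, against 29.6, 8.36 and 12.9 in infertile libraries (1.81 ± 0.65). Bot_rep_c45996 had 110.0, 373 and 195 in fertile libraries, against 766, 333 and 1001 in infertile libraries (-1.66 ± 0.64), and Bot_c9926 was at least 4.51-fold higher in fertile colonies, with 50.8, 2.42 and 13.0 against 1.35, 0 and 0. Fertile library 1 carried that bound, which was 1.58-fold without it. Microfibril-associated glycoprotein 4 (Bot_c1378), a fibrinogen-domain matrix protein, had 104, 554 and 182 in fertile libraries, against 0, 6.97 and 2.15 in infertile libraries (6.23 ± 0.94, adjusted p of 0.934 in the negative binomial exact test). It was low in all 3 infertile libraries, with no overlap.

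Genes taken as male by homolog name divided the libraries in another way, with infertile library 1 on the fertile side. Of the 47 sperm and testis contigs tested, 43 had a positive difference, with a median of 2.13. Yet 2 had a limma p below 0.05, both higher (2.32% of all contigs), and the groups were free of overlap for 0. The fertile mean was over 2 times the infertile mean for 26 of the 47. Testis-specific serine kinases act in spermatids, and tsk1 (Bot_rep_c45338) had 741, 535 and 1543 normalized counts in fertile libraries, against 719, 11.1 and 8.61 in infertile libraries (4.28 ± 1.68). Infertile library 1 lay between fertile libraries 1 and 2. The tsk2 contig, Bot_rep_c36244, had 21.2, 14.5 and 178 in fertile libraries, against 109, 0 and 0 in infertile libraries (3.04 ± 2.02). By in situ hybridization the study placed tsk2 mRNA in young oocytes as well as on developing testes. Kelch-like protein 10, part of a ubiquitin ligase of spermatids in mice, had 39.5, 50.8 and 134 in fertile libraries, against 84.8, 0 and 0 in infertile libraries (Bot_c24963, 3.90 ± 1.78). Otoancorin, followed as otoa (CAP3_round1_contig_9042), had 502, 532 and 3228 in fertile libraries, against 1525, 18.1 and 6.46 in infertile libraries (3.99 ± 2.03). In each of these contigs infertile libraries 2 and 3 were low and infertile library 1 was within the fertile range.

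**Figure D2:**
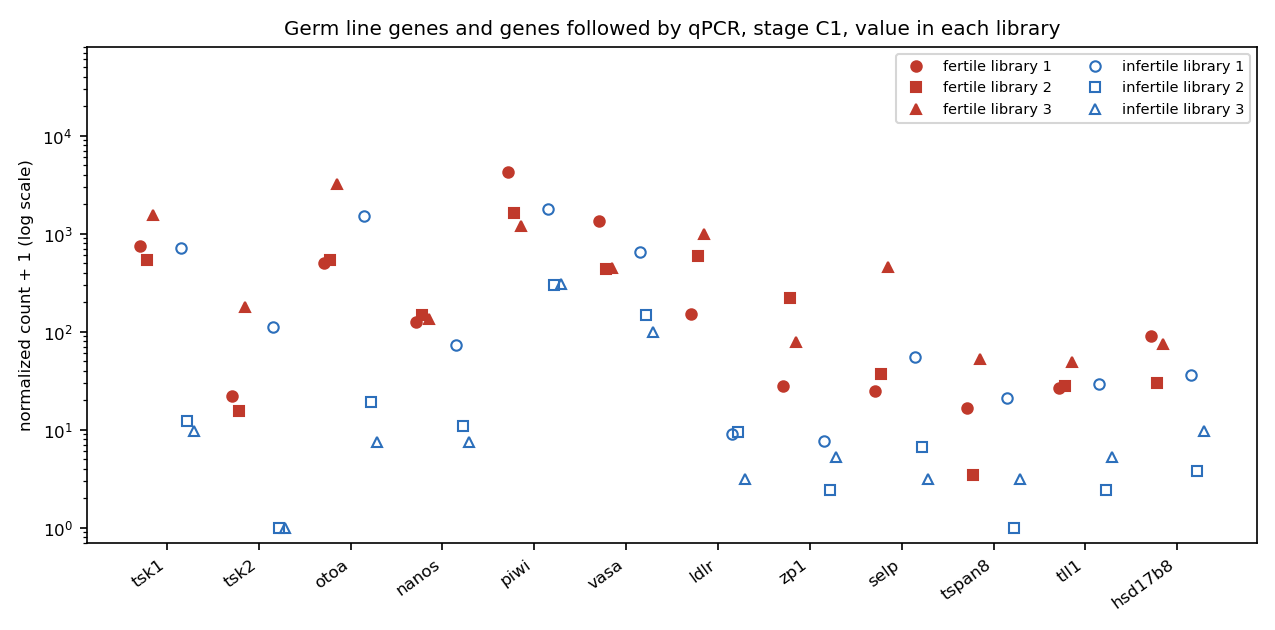
Normalized count + 1 (log axis) of 9 of the genes followed by qPCR and of nanos, piwi (Bot_c34775) and vasa, in the 3 fertile (filled red) and 3 infertile (open blue) libraries of stage C1. For tsk1, tsk2 and otoa infertile library 1 (open circle) lies in the fertile range, while for ldlr and zp1 it lies with the other infertile libraries.

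Axonemal proteins, which build the sperm tail and the cilia of somatic tissues, were less sharply divided. Of 65 tested contigs, 53 had a positive difference with a median of 1.20. At a limma p below 0.05, 2 were higher and 3 lower, against 2.32% and 1.55% of all contigs. Dynein heavy chain 1, a flagellar motor, had 14.1, 29.0 and 56.3 normalized counts in fertile libraries, against 2.69, 9.75 and 2.15 in infertile libraries (Bot_c10988, 2.57 ± 0.70). Its infertile library 1 was low. The heavy chain 5 contig Bot_c32023 was at least 7.93-fold higher in the fertile mean, with 7.05, 9.68 and 99.7 against 2.69, 0 and 0, and fertile library 3 supplied most of that mean, the bound being 1.71-fold without it. Tubulins of the list lay on both sides. The tubulin beta-2C contig CAP3_round1_contig_9460, picked after its values were seen, had 3034, 1142 and 1963 in fertile libraries, against 2751, 75.2 and 92.5 in infertile libraries. The tubulin beta-2C contig 454_debris_rep_c2137 had 224, 194 and 217 in fertile libraries, against 427, 329 and 471 in infertile libraries (-0.93 ± 0.34), with no overlap.

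Meiotic chromosome proteins had a median difference of 1.51. Of 10 tested contigs, 9 had a positive difference and 3 had a limma p below 0.05, all higher (2.32% of all contigs). The groups did not overlap for 4, with the fertile libraries on top (4.39% of all contigs). MutS protein homolog 4, which stabilises meiotic crossovers, had 33.9, 24.2 and 21.7 normalized counts in fertile libraries, against 9.42, 5.57 and 4.30 in infertile libraries (CAP3_round1_contig_1370, 1.93 ± 0.42). Synaptonemal complex protein 3, an axial element protein of meiotic chromosomes, had 53.6, 33.9 and 39.0 in fertile libraries, against 25.6, 9.75 and 6.46 in infertile libraries (Bot_rep_c51033, 1.72 ± 0.56). HORMA domain-containing protein 2, which monitors synapsis, had 210.2, 155 and 113 in fertile libraries, against 95.6, 64.1 and 23.7 in infertile libraries (CAP3_round1_contig_456, 1.53 ± 0.60). In these 3 contigs the groups did not overlap and infertile library 1 was the highest infertile library.

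Histone contigs had the largest median difference of the homolog lists after the yolk protein, at 3.71 over 14 tested. At a limma p below 0.05, 6 were higher and 0 lower, against 2.32% and 1.55% of all contigs. The count test called 1 of the 14 (0.0288% of all contigs). The linker histone H1.0 contig CAP3_round1_contig_6859 had 494, 285 and 256 normalized counts in fertile libraries, against 74.0, 5.57 and 6.46 in infertile libraries (4.42 ± 0.99, adjusted p of 0.0276 in the negative binomial exact test). The groups did not overlap, and infertile library 1 was above the other infertile libraries at 21.5% of the fertile mean. The call was kept in 4 of 7 alternatives and lost without fertile library 1 or infertile library 2 or 3. A pair of H1.0 contigs had a similar order, Bot_rep_c48328 with 662, 225 and 312 in fertile libraries, against 75.4, 8.36 and 4.30 in infertile libraries, and Bot_rep_c50403 with 384, 266 and 377 against 119.8, 8.36 and 10.8. Both had an adjusted p of 0.532 in the negative binomial exact test. Core histones differed in infertile library 1. Histone H2B type 1-L (CAP3_round1_contig_5576) had 262, 167 and 529 in fertile libraries, against 297, 0 and 2.15 in infertile libraries (4.87 ± 2.06), so that infertile library 1 was inside the fertile range. The variant H2A.Z (Bot_rep_c35712) had 412, 111 and 117 in fertile libraries, against 52.5, 34.8 and 6.46 in infertile libraries (2.86 ± 0.90), with no overlap. Histone contigs are near-identical copies in part, and their reads may be split between them. The fertile mean was over 2 times the infertile mean for 7 of the 14, and 1 contig was lower without overlap. Summed over the list, the level was 7052, 5649 and 8385 in fertile libraries, against 8386, 6073 and 13621 in infertile libraries. Abundant members of the list thus did not share the difference.

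Regulators of germ cells had a positive difference in 13 of 14 tested contigs, with a median of 1.96, and of 2.47 without infertile library 1. At a limma p below 0.05, 6 were higher and 0 lower, against 2.32% and 1.55% of all contigs. The groups did not overlap for 5, with the fertile libraries on top (4.39% of all contigs). A boule-like RNA-binding protein, of a family needed for male meiosis in the fly, had 333, 145 and 117 normalized counts in fertile libraries, against 72.7, 18.1 and 15.1 in infertile libraries (CAP3_round1_contig_4110, 2.66 ± 0.73). The translational repressor nanos (Bot_c494) had 126, 145 and 134 in fertile libraries, against 71.3, 9.75 and 6.46 in infertile libraries (2.92 ± 0.87). Maelstrom, a piRNA pathway protein, had 442, 155 and 321 in fertile libraries, against 135, 40.4 and 43.0 in infertile libraries (Bot_c1436, 2.16 ± 0.65). The groups did not overlap in these 3, with infertile library 1 again the highest infertile library.

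Vasa and piwi, which mark primitive germ cells in both states, were present in all 6 libraries. The vasa homolog DDX4 (CAP3_round1_contig_8235), an RNA helicase, had 1349, 435 and 446 normalized counts in fertile libraries, against 641, 145 and 99.0 in infertile libraries (1.60 ± 0.84). The piwi contig Bot_c34775, of the small RNA pathway that silences transposons, had 4257, 1638 and 1205 in fertile libraries, against 1759, 297 and 303 in infertile libraries (1.91 ± 0.86). Infertile library 1 overlapped the fertile group in both. A further piwi contig, 454_debris_c36, had 278, 114 and 99.7 in fertile libraries, against 143, 51.6 and 809 in infertile libraries (-0.31 ± 1.04, limma adjusted p of 0.974). Infertile library 3 was far above the others there, and without it the difference was 0.76.

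Of 10 genes followed by qPCR, chosen on these samples and so no independent evidence of direction, 9 had library values. All 9 had a positive difference, 4 with a limma p below 0.05 (2.32% of all contigs). The groups did not overlap for 2, ldlr and zp1, with the fertile libraries on top (4.39% of all contigs). Tolloid-like tll1 (Bot_c3513), whose homolog in the sheets is the metalloprotease meprin, had 25.4, 26.6 and 47.7 normalized counts in fertile libraries, against 28.3, 1.39 and 4.30 in infertile libraries (2.19 ± 0.93). The steroid dehydrogenase hsd17b8 (Bot_c2901) had 88.9, 29.0 and 73.7 in fertile libraries, against 35.0, 2.79 and 8.61 in infertile libraries (2.42 ± 0.90). Infertile library 1 was inside the fertile range for both. Of 33 contigs that the study named for its fertility genes, 32 were tested. Of these, 31 had a positive difference, with a median of 2.92 (4.48 without infertile library 1). At a limma p below 0.05, 5 were higher and 0 lower, against 2.32% and 1.55% of all contigs. The groups did not overlap for 4, with the fertile libraries on top (4.39% of all contigs). The median level of the 32 was 187, 173 and 574 in fertile libraries, against 348, 9.06 and 9.68 in infertile libraries. Fukutin, a glycosylation enzyme of the Golgi, was among the 4, with 357, 194 and 221 in fertile libraries, against 92.9, 22.3 and 12.9 in infertile libraries (Bot_rep_c50436, 3.0 ± 0.76).

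The remaining calls of the count test were 1 enzyme and 4 contigs without a named homolog, all with an adjusted p of 0.0999 in the negative binomial exact test, just inside the 10% FDR. With a library left out or both mates counted, the call was kept in 4 of 7 alternatives for the enzyme and in 2 of 7 for each of the other 4, and the highest adjusted p was 1.0 for all 5. Ubiquitin-conjugating enzyme E2 D1, which passes ubiquitin to target proteins, had 148, 109 and 65.0 normalized counts in fertile libraries, against 13.5, 4.18 and 6.46 in infertile libraries (Bot_rep_c50685, 3.64 ± 0.54). Bot_rep_c48084 had 200.3, 2114 and 1352 in fertile libraries, against 4.04, 5.57 and 2.15 in infertile libraries. Bot_rep_c49193 had 365, 3280.2 and 5529 in fertile libraries, against 5.38, 8.36 and 0 in infertile libraries. Both shared with the yolk protein contigs a lower value in fertile library 1. Bot_c28574 and Bot_rep_c38974 had the opposite order. Bot_c28574 was at least 94.4-fold higher in the fertile mean, with 625, 752 and 8.67 against 0, 0 and 2.15. Its fertile library 3 held 2 read pairs, within the floor of 3, so the bound rests on fertile libraries 1 and 2. Bot_rep_c38974 was at least 34.5-fold higher, with 226, 254 and 26.0 against 0, 1.39 and 2.15. Without fertile library 2 these bounds were 64.8-fold and 25.7-fold. Outside the calls, a contig of the water channel aquaporin-8 (Bot_c7372) had 87.5, 19.4 and 43.3 in fertile libraries, against 1.35, 0 and 0 in infertile libraries. It was at least 10.2-fold higher (6.41-fold without fertile library 1), with an adjusted p of 0.221 in the negative binomial exact test. Another aquaporin-8 contig, given below, lay on the other side.

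Of 7 tested water, choline and efflux transporters 5 had a positive difference, with a median of 1.93 (3.10 without infertile library 1). The aquaporin-8 contig Bot_c7372 was the 1 with a limma p below 0.05. A more abundant aquaporin-8 contig, Bot_c25481, lay on the other side with overlap (-1.10 ± 0.50). It had 213, 84.7 and 78.0 normalized counts in fertile libraries, against 249, 195 and 288 in infertile libraries. A homolog of the efflux pump multidrug resistance protein 1 had 276, 218 and 663 normalized counts in fertile libraries, against 459, 33.4 and 45.2 in infertile libraries (Bot_c2465, 1.93 ± 1.06), with infertile library 1 inside the fertile range. Of 12 tested steroid and retinoid enzymes 8 had a positive difference, 1 of them, hsd17b8, with a limma p below 0.05, and the median difference was 0.23. A homolog of 17-beta-hydroxysteroid dehydrogenase 14 had 18.3, 12.1 and 13.0 in fertile libraries, against 8.08, 1853 and 495 in infertile libraries (CAP3_round1_contig_2142, -3.73 ± 1.87). Infertile libraries 2 and 3 were high there and infertile library 1 was the lowest of the 6.

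**Figure D3:**
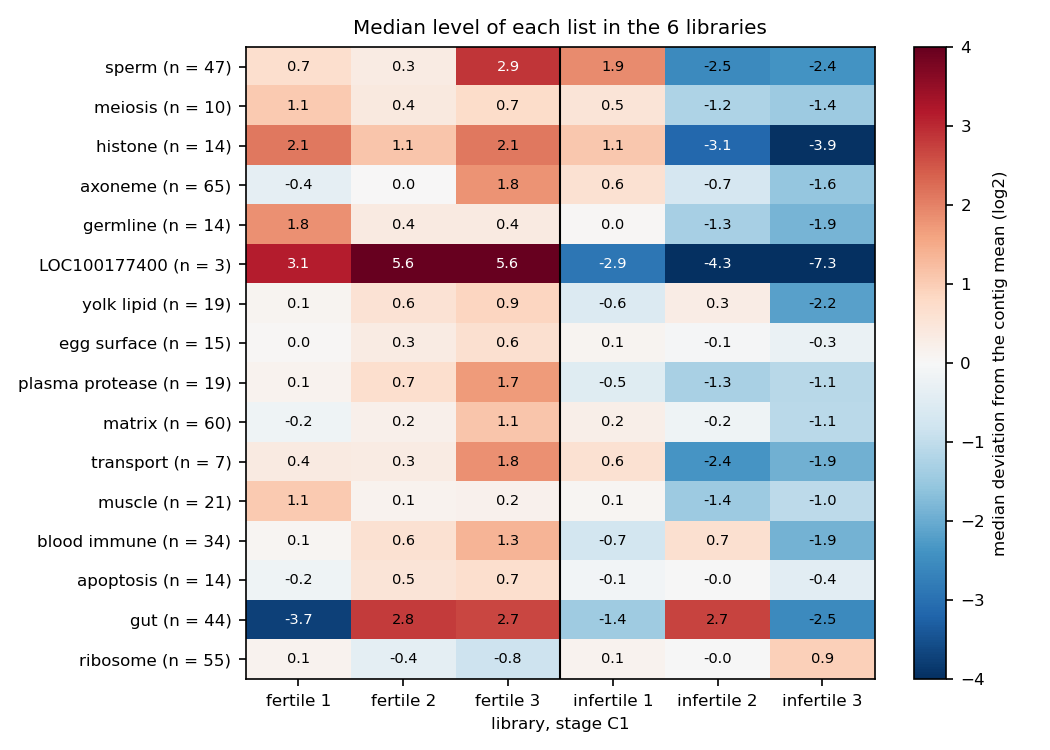
Median deviation from the contig mean (log2) of each list in fertile libraries 1 to 3 and infertile libraries 1 to 3 at stage C1, with colours that stop at ±4. Infertile library 1 is above 0 for the sperm, meiosis and histone lists and at -2.88 for LOC100177400, and the gut list follows neither state.

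Somatic tissues of the colony varied among libraries too. Digestive enzymes, which mark the stomach and gut gland, had a median over 44 tested contigs of 16.2, 1601 and 1228 normalized counts in fertile libraries, against 102, 1148 and 18.3 in infertile libraries. Each group thus held libraries at both levels, 0 of the 44 had a limma p below 0.05, and the median difference of 1.02 changed sign to -0.07 without fertile library 2 and to -0.08 without infertile library 3. Chymotrypsinogen B (Bot_c16350) did not follow the list, with 83.2, 72.6 and 498 in fertile libraries, against 257, 12.5 and 8.61 in infertile libraries. The part of feeding tissue in the other differences was not tested.

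Muscle contractile proteins had a positive difference in 14 of 21 tested contigs, with a median of 2.12. At a limma p below 0.05, 5 were higher and 0 lower, against 2.32% and 1.55% of all contigs. Myosin-6, a heavy chain of cardiac muscle in vertebrates, was at least 51.8-fold higher in fertile colonies (26.5-fold without fertile library 1), with 501, 220.1 and 39.0 normalized counts against 0, 1.39 and 2.15 (Bot_c10555, adjusted p of 0.532 in the negative binomial exact test). A myosin light chain of skeletal muscle type (Bot_c16840) had 439, 133 and 56.3 in fertile libraries, against 2.69, 19.5 and 0 in infertile libraries (5.15 ± 1.25). The ventricular regulatory light chain (Bot_rep_c48807) had 1253, 523 and 52.0 in fertile libraries, against 8.08, 5.57 and 58.1 in infertile libraries (4.42 ± 1.37). Fertile library 1 was the highest for all 3 and infertile library 1 was low, the reverse of what it showed for sperm genes. Summed over the 21 tested contigs, the level was 14702, 11679 and 17723 in fertile libraries, against 18424, 15901 and 33452 in infertile libraries. Abundant tested members thus did not share the difference. A Myosin-7 homolog without a full set of library values (454_debris_rep_c1899) is not in that sum. Its group means were 55299 in fertile and 19465 in infertile colonies.

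Lectins and receptors of blood cells had a median difference of 1.32 over 34 tested contigs. Of these, 33 were positive and 1 was higher at a limma p below 0.05, against 2.32% of all contigs. Intelectin-2, a lectin that binds microbial sugars in vertebrates, had 688, 585 and 607 normalized counts in fertile libraries, against 217, 308 and 194 in infertile libraries (Bot_rep_c35634, 1.41 ± 0.36). The groups did not overlap and the fertile libraries were close to each other. Caspases and their inhibitors, which act in the death of the old zooids, were divided, with 10 of 14 positive. At a limma p below 0.05, 1 was higher and 1 lower, against 2.32% and 1.55% of all contigs. Baculoviral IAP repeat-containing protein 2, an inhibitor of cell death, had 172, 641 and 204 in fertile libraries, against 101, 86.4 and 49.5 in infertile libraries (CAP3_round1_contig_7169, 1.89 ± 0.62). Baculoviral IAP repeat-containing protein 4 had 5.64, 4.84 and 4.33 in fertile libraries, against 9.42, 19.5 and 30.1 in infertile libraries (Bot_c10648, -1.67 ± 0.49). Neither pair of groups overlapped. A more abundant contig of protein 4 lay on the other side, with overlap (Bot_c1096, 3.18 ± 1.44). It had 1817, 1282 and 646 in fertile libraries, against 176, 814 and 12.9 in infertile libraries.

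With all 6 libraries, 0 contigs with lower values in fertile colonies passed either test at the 10% FDR. Ribosomal proteins and elongation factors held more of them than any other list. Of 55 tested contigs, 11 were lower at a limma p below 0.05, against 1.55% of all contigs, and 1 was higher, against 2.32%. The groups did not overlap with fertile lower for 16, against 5.73% of all contigs. The median difference was -0.77, or -0.47 without infertile library 3. The median level of the list was 1491, 939 and 836 normalized counts in fertile libraries, against 1408, 1145 and 2464 in infertile libraries, so that fertile library 1 lay above infertile libraries 1 and 2. Ribosomal protein S13 of the small subunit had 86.1, 104 and 95.3 normalized counts in fertile libraries, against 268, 236 and 405 in infertile libraries (454_debris_rep_c1351, -1.62 ± 0.37). Ribosomal protein L17 of the large subunit had 1759, 3866 and 3202 in fertile libraries, against 6199, 6242 and 10286 in infertile libraries (CAP3_round1_contig_9579, -1.40 ± 0.46). Elongation factor 2, which moves the ribosome along its message, had 1411, 939 and 988 in fertile libraries, against 2140.3, 1989.9 and 2978 in infertile libraries (Bot_rep_c54684, -1.09 ± 0.37). In these 3 contigs the groups did not overlap, infertile library 1 stood with the infertile group, and infertile library 3 was the highest.

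Among the 10 contigs with the smallest limma p on the lower side, 2 had a human homolog, ribosomal protein S13 and cysteine-rich motor neuron 1. Cysteine-rich motor neuron 1, a transmembrane regulator of BMP signals in vertebrates, had 56.4, 232 and 130.0 normalized counts in fertile libraries, against 789, 615 and 1123 in infertile libraries (CAP3_round1_contig_8091, -2.76 ± 0.60, adjusted p of 0.761 in the negative binomial exact test). Bot_c13333 had 2.82, 4.84 and 4.33 in fertile libraries, against 39.0, 19.5 and 60.3 in infertile libraries (-2.91 ± 0.50). Bot_c16226 had 53.6, 50.8 and 134 in fertile libraries, against 324, 351 and 454 in infertile libraries (-2.36 ± 0.49). The 10 contigs had ratios of group means between 0.101 and 0.334, and the groups did not overlap in any of them. Infertile library 1 lay with the infertile group in each, at between 236% and 977% of the fertile mean.

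Most of the most abundant contigs, which have no library values, had the higher mean in fertile colonies at this stage. Of the 179, 63 passed 30000 normalized counts in the fertile mean alone and 8 in the infertile mean alone, which fixes their direction. Of the 108 above it in both means, 97 had the higher mean in fertile colonies, 92 by at least 2 times, 0 had an infertile mean at least 2 times higher, and the median ratio was 3.47. These 108 made up 64.4% of the fertile total of normalized counts and 35.0% of the infertile total. The 63 contigs with a mean over both groups of at least 100000 had a median ratio of 3.77, with 62 higher in fertile colonies, and the 88 contigs between 30000 and 100000 had 3.22. In the band below, from 10000 to 30000, the median ratio over 143 contigs was 0.785. At the other 6 stages the ratio of the contigs of at least 100000 ranged from 0.841 at C2 to 2.04 at A1, so that C1 had the highest value of the 7. With group means only, no test and no spread between libraries can be given.

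**Figure D4:**
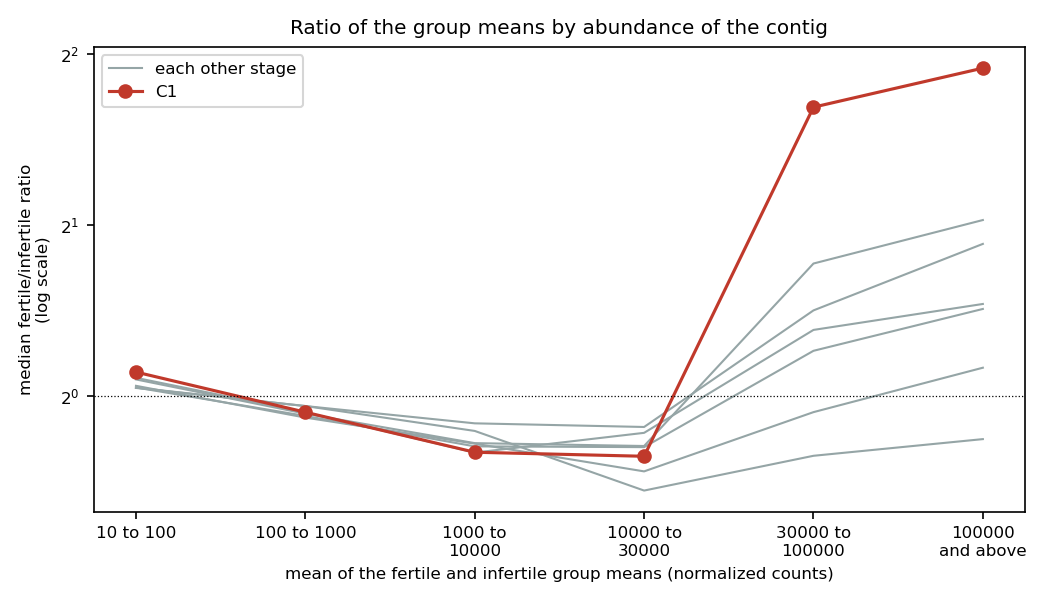
Median ratio of the fertile to the infertile group mean (log axis) against the abundance of the contig (mean of both group means, normalized counts), for stage C1 (red) and each other stage (grey). Stage C1 has ratios of 3.22 and 3.77 in the 2 most abundant bands, above those of the other 6 stages, and 0.785 in the band below.

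Few of these abundant contigs have a named homolog. Those given here, apolipoprotein B-100 and Myosin-7 above and actin below were picked after their values were seen. The testis-type alpha tubulin 454_debris_rep_c2075 had means of 523762 normalized counts in fertile and 118270.0 in infertile colonies, and laminin beta-2, a basement membrane protein (454_debris_rep_c2144), had 168086 in fertile and 48034 in infertile colonies. Elongation factor 2 lay on the other side than in the contig above. Its contig 454_debris_rep_c2184 had means of 121259 in fertile and 28043 in infertile colonies, and 454_debris_rep_c1991 had 48937 in fertile and 16696 in infertile colonies. Ribosomal protein S6 had 32179 in fertile and 9614 in infertile colonies (454_debris_rep_c2014), while ribosomal protein P0 had 16321 in fertile and 30416 in infertile colonies (CAP3_round1_contig_10066). Contigs of 1 protein thus lay on both sides, and the direction of a protein cannot be read from 1 contig. The abundant contigs take their share from the total of a library. Size factors rest on the median contig, which fixes in advance that the median difference of all contigs tested is small (0.01). That median therefore cannot show an effect of the abundant contigs on the others, which was not tested. Scaled to the total of the recovered pairs, which leaves out the contigs without library values, that median was 0.19. The split of contigs at an unadjusted p below 0.05 was then 1308 higher and 311 lower, against 885 and 592.

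Leaving out infertile library 1 raised the number of calls. The count test then called 61 contigs higher (0.160%) and 42 lower (0.110%) in fertile colonies, 103 in all, and 7 of the 61 were among the 11 called with 6 libraries. Limma called 2 higher (0.00523%) and 2 lower (0.00523%). The library left out stood within 2 times of the fertile range for 49 of the 61 and 39 of the 42, which the choice of contigs by leaving it out largely fixes. The examples that follow were chosen after their values were seen. The transcription factor SOX-30, which acts in spermatid differentiation in mice, had 868, 544 and 412 normalized counts in fertile libraries, against 516, 50.2 and 34.4 in infertile libraries (Bot_rep_c35461, adjusted p of 0.0118 in the negative binomial exact test without infertile library 1). A mitochondrial creatine kinase, an enzyme of energy transfer, had 506, 445 and 589 in fertile libraries, against 699, 18.1 and 12.9 in infertile libraries (Bot_rep_c35370, 0.0011 in the same exact test). The tsk1 contig was called as well (0.0265 in the same exact test). Of the 61, 6 were tubulin beta contigs, 4 were histone H1.0 contigs and 27 had a human homolog. The median difference without that library was 3.46 for the sperm list, 1.97 for the axoneme list, 2.15 for the meiosis list and 5.65 for the histone list, with 2, 6, 0 and 5 of their contigs called by the count test in that order.

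On the lower side, 3 of the 42 had a human homolog. The adaptor 14-3-3 epsilon, which binds phosphorylated proteins, had 49.4, 46.0 and 60.7 normalized counts in fertile libraries, against 70.0, 556 and 867 in infertile libraries (CCTT42079.b1, adjusted p of 0.00566 in the negative binomial exact test without infertile library 1). Cullin-3, the scaffold of a ubiquitin ligase, had 55.0, 96.8 and 143 in fertile libraries, against 213, 581 and 785 in infertile libraries (CAP3_round1_contig_8902, 0.0603 in the same exact test). Cytoplasmic actin 2 had 131, 102 and 568 in fertile libraries, against 104, 1193 and 2225 in infertile libraries (Bot_rep_c47959, 0.0703 in the same exact test). Actin contigs also lay on the other side. A more abundant contig of cytoplasmic actin 2 (454_debris_rep_c2039) had group means of 37064 in fertile and 9348 in infertile colonies. The beta-actin-like contig Bot_rep_c44885 was called higher in fertile colonies (0.0309 in the same exact test). A contig without a named homolog, Bot_rep_c35573, had 0 in all 3 fertile libraries and in infertile library 1, against 1145 and 783 in infertile libraries 2 and 3. With state and genotype joined in few libraries, the part of each cannot be told apart.

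Seen across the 7 stages, which were normalized separately, stage C1 held a large difference in yolk protein and, with all 6 libraries, a smaller one in male genes than B1. The median difference of the LOC100177400 contigs was 10.50 at B1, 9.46 at B2, 9.69 at C1 and 8.16 at C2, while the first stages A1 and A2 had 5.70 and 6.16 and the last, D, had 8.56. It rests on between 3 contigs at C1 and 6 at A1 and A2, since the most abundant have no library values at some stages. That of the sperm list was 4.91 at B1, 3.93 at B2, 2.13 at C1 and 0.24 at C2. The histone list had 7.51 at B1, 4.82 at B2, 3.71 at C1 and 5.60 at C2, and the meiosis list 4.60, 2.07, 1.51 and 2.85 in the same order. C1 had the lowest of 7 values for histones and for meiosis. Without infertile library 1 its values were 5.65 and 2.15, and that of the sperm list was 3.46. These 3 values cannot be ranked against the other stages, where no library was left out. At B2 the median histone level was likewise uneven among infertile libraries 1, 2 and 3, at 218, 7.56 and 2.59 normalized counts. For sperm contigs the median level of the fertile libraries at C1 was 54.3, 49.6 and 165, against 97.6, 4.18 and 4.30 in infertile libraries. At B2 it was 219, 134 and 228 in fertile libraries, against 65.7, 7.56 and 10.3 in infertile libraries, and at C2 it was 26.7, 35.6 and 21.4 against 120.2, 9.25 and 8.38. An infertile library with sperm contigs well above the other infertile libraries was thus present at B2, C1 and C2. Whether it was the same genotype was not determined, since the numbers are not shared between stages. The study's sheets of mapped reads for fertile and infertile samples were not used.

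**Figure D5:**
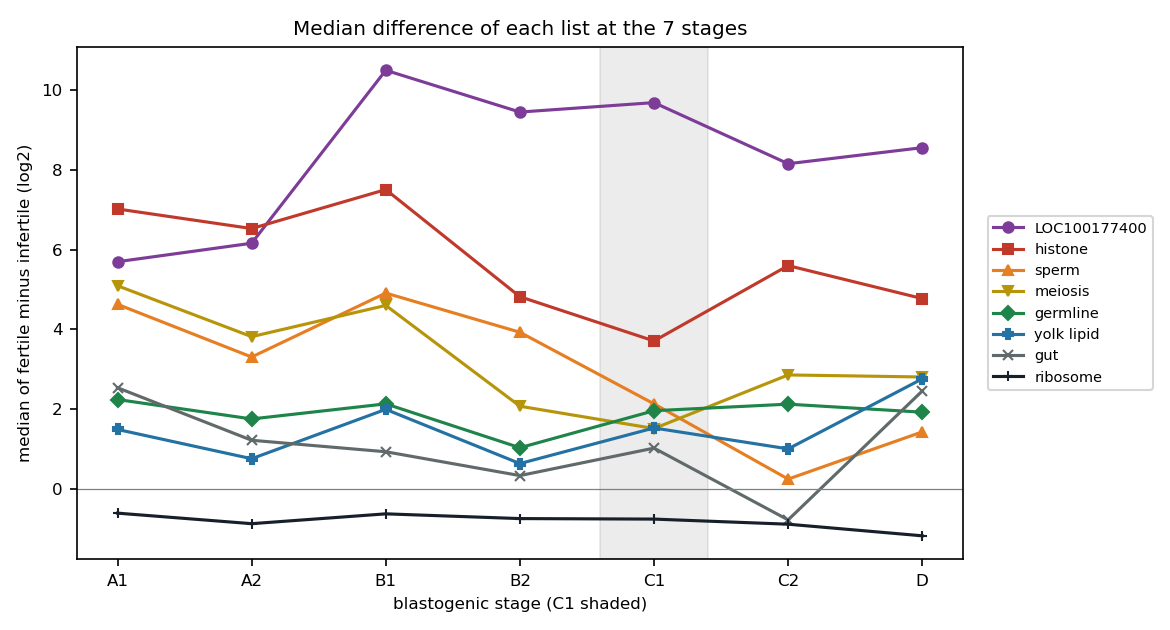
Median difference, fertile minus infertile (log2), of 8 lists at the 7 stages of the cycle, with C1 shaded. At C1 the LOC100177400 contigs stand at 9.69 and the sperm list at 2.13, against 10.50 and 4.91 at B1, while the ribosome list stays below 0 at each stage.

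A test of the difference itself did not separate C1 from other stages. It took the 42 libraries as independent, although the same genotypes recur at all stages and were not modelled. The lack of calls thus does not show that the stages are alike. The SE of this contrast rests on the spread within groups over all 42 libraries. In limma over 42 libraries, the fertile minus infertile difference at C1 was set against the average difference of the other 6 stages for 38603 contigs, and 0 were called (0%), with 443 at an unadjusted p below 0.05 and a smallest adjusted p of 1. Against B2 alone 0 were called, with 494 at an unadjusted p below 0.05, and against C2 alone 0 were called, with 546. The contig with the smallest p and a larger difference at C1 was Bot_rep_c48272, without a named homolog, which had 3257, 3123 and 3068 normalized counts in fertile libraries, against 576, 205 and 1528 in infertile libraries. Its difference at C1 was 2.48 ± 0.74 and stood 2.27 ± 0.60 above its mean at other stages (limma adjusted p of 1). Among the others, suppressor of cytokine signaling 2 (Bot_c6788) had 4.23, 4.84 and 13.0 in fertile libraries, against 26.9, 22.3 and 12.9 in infertile libraries, and its C1 difference minus that elsewhere was -2.75 ± 0.73. The C1 difference of synaptonemal complex protein 3 (CAP3_round1_contig_7602), with 135, 72.6 and 65.0 in fertile libraries, against 74.0, 19.5 and 19.4 in infertile libraries, had a value of -2.62 ± 0.83 relative to its mean at the other stages.

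Contigs chosen at other stages gave the same division of the C1 libraries. Of 374 contigs that limma called higher in fertile colonies at both A1 and B1, 327 were tested at C1, where 323 had a positive difference with a median of 2.45 (3.78 without infertile library 1). At a limma p below 0.05, 48 were higher and 0 lower, against 2.32% and 1.55% of all contigs. The count test called 8 of the 327 (0.0288% of all contigs), and 25 without infertile library 1. The median level of the 327 at C1 was 45.1, 33.9 and 182 normalized counts in fertile libraries, against 84.8, 4.18 and 2.15 in infertile libraries. Infertile library 1 thus lay above fertile libraries 1 and 2. The same genotypes recur at all stages, so these values describe the libraries and are no independent test.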

How the data were processed

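RNA of whole colonies was sequenced as paired-end libraries after polyA capture. After trimming, the authors mapped reads with Bowtie 0.12.7 to contigs assembled from expressed sequence tags, counted them by contig (SAMtools 0.1.18) and normalized and compared the groups within each stage with DESeq 1.10.1. The deposited signal is the mean of normalized counts over the 3 libraries of a group. The deposited tables also hold the authors' mean over both groups, fold changes, log2 fold changes, p-values and adjusted p-values, which were not used.

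Each group mean is a sum of 3 whole numbers of read pairs, each counted as 2 reads and divided by its library's size factor, and the pairs were solved from the deposited means. Solutions were single for 49927 of 50106 contigs at C1, and 3120 contigs were at 0 in both groups. The recovered size factors were 1.42, 0.827 and 0.462 in fertile and 1.49, 1.44 and 0.929 in infertile libraries. Log2(normalized count + 1) was tested with limma 3.58.1 in R 4.3.3 where the 6 libraries averaged 10 or more. Read pairs were tested with a negative binomial exact test written for this purpose in Python 3.11.15 (pooled dispersion, the larger of the contig's and the fitted value). Both were tested on simulated data. With dispersions drawn from those estimated here, each let through a larger share of unchanged contigs than the 10% FDR, and with a fixed dispersion a smaller one. A group with 3 read pairs or fewer in each library was taken as at the floor, and folds against it are lower bounds for counting error only. P-values measure the spread between these libraries.

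Homolog names came from 5 supplementary sheets, which pair 4967 contigs with a match, 2134 of them with a human homolog. The 17 lists match fixed patterns in those names. The members, lists and tests were chosen with earlier results of these data known. Contigs were named if called by either test, if among the 10 smallest limma p in each direction, if among up to 4 of smallest p in a list, if followed by qPCR or annotated as nanos, vasa or piwi, or among 6 of smallest p in the study's list or in the contrast between stages. Alternatives covered the test, pseudocounts, filters, scaling, thresholds and each library left out. Homologs named only in the sheets for C2 and D were not used here.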

Additional observations from a re-analysis of the deposited data

How the results depend on the processing

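Limma called 0 contigs with other pseudocounts, filters, scalings, quality weights, voom and FDR thresholds of 5% and 20%. Leaving out a library gave between 0 and 4 limma calls, the 4 without infertile library 1. The negative binomial exact test called 11, and 12 with both mates counted, and between 1 and 103 with a library left out. It called 13 and 56 without fertile libraries 1 and 2, 41 without fertile library 3, and 103, 1 and 3 without infertile libraries 1, 2 and 3. No paired analysis was made because recovered libraries carry no number shared between the groups.

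List medians ranged with a library left out from 0.48 to 2.29 for yolk and lipid, 0.35 to 1.03 for the egg surface, 0.23 to 1.21 for matrix, 2.58 to 5.65 for histones, 1.43 to 2.77 for muscle, 0.41 to 1.97 for the axoneme, 1.38 to 3.46 for sperm, 0.65 to 2.15 for blood, 0.66 to 1.52 for plasma proteases, -1.02 to -0.47 for ribosomes and -0.084 to 3.14 for gut, which turned to -0.067 without fertile library 2 and -0.084 without infertile library 3. The direction turned for 454_debris_c36 (0.76 without infertile library 3, range -1.21 to 0.76 with a library left out), Bot_c22851 (0.084 scaled to total read pairs, 0.37 without fertile library 2, 0.34 without infertile library 1, range -0.43 to 0.37, limma adjusted p of 0.986) and Bot_rep_c50991 (-0.16 without fertile library 1, -0.49 without infertile library 3, range -0.49 to 0.53, limma adjusted p of 0.98). The causes were not tested. Over 107 single-contig results, 6 values turned and 1350 kept their side in limma or their call in the exact test. The other 38 were lost calls of the exact test. They all came from the 11 contigs called by that test, which kept their call in between 2 and 7 of 7 alternatives each.

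Depth limits low contigs most in fertile library 3, and the 179 most abundant contigs have group means only.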

Other observations

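Presence and absence divided the libraries in several ways. Taking 50 normalized counts or more as present and 3 read pairs or fewer as not detected, 16815 contigs were present in all 6 libraries. Among the other clear patterns, 37 contigs were present in the 3 fertile libraries and infertile library 1 and not detected in infertile libraries 2 and 3. A further 22 were present in fertile library 2 and infertile library 1 alone, 17 in infertile libraries 2 and 3 alone, 50 in fertile library 3 alone and 30 in infertile library 3 alone. At 6 of the 7 stages the most alike pair of libraries was 1 fertile and 1 infertile library, with r across contigs of 0.874 at C2 to 0.909 at B2. At D it was a pair of fertile libraries, with r = 0.945.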
